A study of Mus musculus with 13 samples.

Results

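The 38 genes described here are the laminin chains, the nidogens and the integrin subunits measured on whole-transcript arrays of newborn mouse cerebral meninges, out of 19938 genes with a value. They were taken by symbol: the Lama, Lamb and Lamc chains with a value and both nidogens form the ligand side (12 genes), and the Itga and Itgb subunits with a value form the receptor side (26 genes, 18 alpha and 8 beta subunits). Each gene is read by its brightest probe set that is listed for that symbol alone. The 3 probe sets listed for both Itgam and Rpl35 were set aside, so Itgam is read by a probe set of its own. The mutants were 4 Pdgfc-/-; Pdgfra GFP/+ pups, and the controls were their 9 littermates of all other genotypes, which the study's methods give as Pdgfc+/+, Pdgfc+/- and Pdgfc-/- without the GFP allele, and Pdgfc+/+ and Pdgfc+/- with Pdgfra GFP/+. All pups were newborn C57BL6 mice from a single litter. The deletion of Pdgfc and the GFP allele, in which a nuclear GFP disrupts Pdgfra, were carried by every cell of the animal. The labels do not say which control had which genotype, so an effect of the combined genotype cannot be told apart from that of either allele alone.

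Laminins are secreted trimers of an alpha, a beta and a gamma chain that polymerise on cell surfaces and start the assembly of a basement membrane. Nidogens bridge the laminin polymer to the type IV collagen network, and integrins, heterodimers of an alpha and a beta subunit, are among the receptors through which cells bind both. In the brain, meningeal fibroblasts contribute much of the pial basement membrane, to which the endfeet of radial glia attach, and in mice the loss of laminin or beta 1 integrin function there opens gaps through which cortical neurons migrate too far. The comparison addresses whether the meninges of these mutants differ in the components of that membrane or in the receptors for it.

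The 250 bases upstream of the transcription start are shown for the 2 integrin alpha genes whose mutants and controls did not overlap, and for the laminin and the integrin that rose, so that members moving in opposite directions can be set side by side. They are from RefSeq on build GRCm38.p6, written 5′ to 3′ on the gene's strand and ending at the base before the start site: Itga4 at chr2:79255176-79255425 (plus strand), Itga2 at chr13:114932101-114932350 (minus strand), Lama2 at chr10:27616943-27617192 (minus strand) and Itgb8 at chr12:119238277-119238526 (minus strand). Capitals mark matches on either strand to GGGCGG, a core of the GC box, CCAAT, the core of the CCAAT box, or TATAAA, the TATA box.
Itga4: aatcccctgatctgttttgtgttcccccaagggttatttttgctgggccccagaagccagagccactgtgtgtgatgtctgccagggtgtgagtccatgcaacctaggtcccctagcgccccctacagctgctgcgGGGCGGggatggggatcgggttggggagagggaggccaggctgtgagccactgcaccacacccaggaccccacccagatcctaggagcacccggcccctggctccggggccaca
Itga2: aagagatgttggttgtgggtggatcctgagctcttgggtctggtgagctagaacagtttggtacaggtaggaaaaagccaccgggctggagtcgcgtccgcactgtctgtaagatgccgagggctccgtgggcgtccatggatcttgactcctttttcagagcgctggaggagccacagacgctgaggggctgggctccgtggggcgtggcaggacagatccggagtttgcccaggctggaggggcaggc
Lama2: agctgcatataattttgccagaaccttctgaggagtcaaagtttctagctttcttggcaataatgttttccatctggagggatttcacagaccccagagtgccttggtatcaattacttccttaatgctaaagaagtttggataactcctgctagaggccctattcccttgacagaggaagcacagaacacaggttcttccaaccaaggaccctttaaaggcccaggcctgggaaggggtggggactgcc
Itgb8: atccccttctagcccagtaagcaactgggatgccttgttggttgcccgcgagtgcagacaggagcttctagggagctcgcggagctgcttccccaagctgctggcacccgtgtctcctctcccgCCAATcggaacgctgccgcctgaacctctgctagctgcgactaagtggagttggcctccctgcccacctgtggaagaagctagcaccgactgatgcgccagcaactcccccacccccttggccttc
The Itga4 window held 1 GGGCGG and the Itgb8 window held 1 CCAAT, and neither the Itga2 nor the Lama2 window held any of the 3 motifs. Of 32851 mouse promoters of this length in the same table, 32.7% held GGGCGG, 33.8% held CCAAT and 12.4% held TATAAA. The windows of Itga4, Itga2 and Itgb8 were 64.0%, 60.8% and 62.4% G and C, with 6, 12 and 12 CpG dinucleotides, whereas that of Lama2 was 47.2% G and C with 0 CpG. The median promoter was 52.4% G and C and held 6 CpG. A promoter was matched for 24 of the 38 members and for 6 of the 7 that passed the test, all except Nid2.

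Among all 19938 genes, 14.9% passed the test between mutants and controls, 8.58% higher and 6.31% lower in mutants, with a median log2 fold change of 0.0043. Values are linear array intensities, tests were run on log2(intensity + 16), which understates the change of dim genes, and a gene is said to rise or fall where its p, adjusted over all genes, was under 0.05. The median gene of an array read 56.0 to 89.6 in mutants and 44.1 to 89.0 in controls. Pdgfc, the deleted gene, read 22.8, 27.9, 22.8 and 29.3 in the 4 mutants. In controls it read 5.88 in control 2 and 103 to 275 in the other 8, and the study's methods list Pdgfc-/- among the control genotypes. Pdgfra read 788 to 1561 in mutants and 1039 to 2255 in controls, with overlap. Xist read 2.24 to 4.77 in mutants and 4.78, 8.73 and 6.84 in controls 1, 5 and 8. The remaining 6 controls read 536 to 1019.6, and the labels do not give sex. No mutant read in that upper range, so the Xist level, and any sex difference it marks, was partly confounded with genotype. A fit with the Xist level as a covariate cannot fully separate them. The 15 meningeal fibroblast markers, which include Pdgfra, were all measured, with a mean log2 level of 10.55 to 11.165 in mutants and 10.98 to 11.42 in controls. All 14 pan-neuronal markers rose, with a median log2 fold change of 2.98 and mean log2 levels of 9.46 to 9.69 in mutants and 6.32 to 7.70 in controls.

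Of the 38 members, 7 passed the test (18.4%, beside 14.9% of all genes), 2 of them higher and 5 lower in mutants. On the ligand side Lama2 rose, Nid2 fell and the other 10 did not pass. On the receptor side Itgb8 rose, Itga2, Itga10, Itga4 and Itga9 fell and 21 did not pass. Mutants lay below all controls for 3 members, Nid2, Itga2 and Itga4, and above all controls for 0. Among all genes 9.44% had groups that did not overlap, 3.04% with mutants below and 6.4% with mutants above. The study's methods set limits on the unadjusted p and on the fold. With the fold taken as the ratio of mean intensities, Itga4 alone passed them, 2.15-fold lower in mutants, beside 5.05% of all genes, and on the log2(intensity + 16) scale 0 members passed, beside 4.07%. Before adjustment, p was under 0.05 for 13 of the 38 members, and for 4701 of the 19938 genes. Since the tissue was read in bulk, fewer cells of a type and less RNA per cell cannot be told apart in any of these values.

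**Figure D1:**
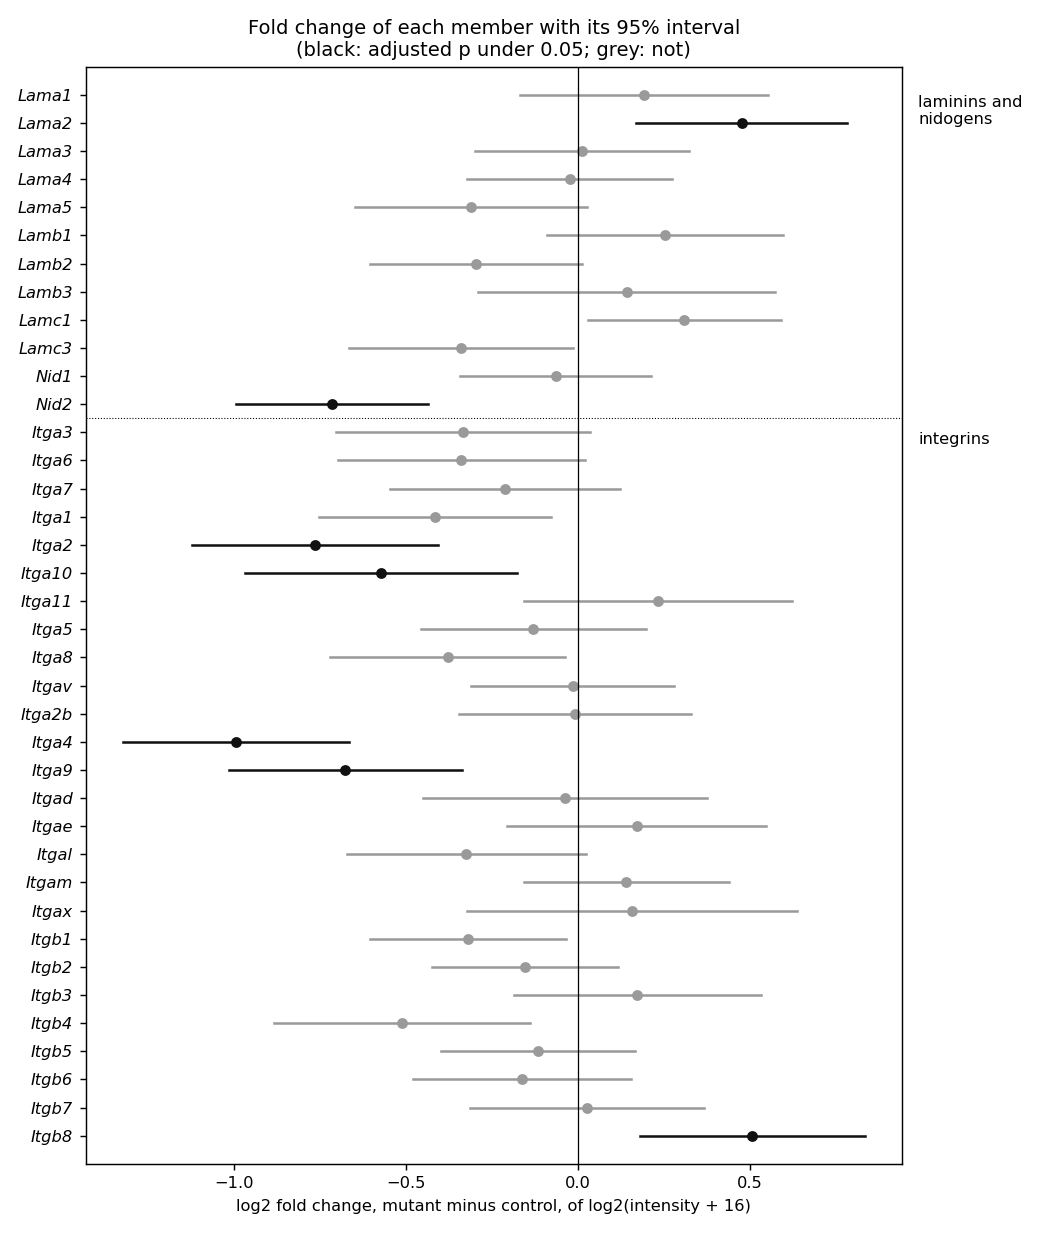
Log2 fold change (mutant minus control, horizontal axis, on the log2(intensity + 16) scale) of each of the 38 members with its 95% interval, laminins and nidogens above the dotted line and integrins under it. Black points passed the test at an adjusted p under 0.05: Lama2 (0.48) and Itgb8 (0.51) lie right of 0, and Nid2, Itga2, Itga10, Itga4 and Itga9 lie left of it, from -0.57 to -0.99.

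Of the 5 laminin alpha chains, Lama2 was the only one that passed. Lama2 encodes the alpha 2 chain, which is abundant in muscle and nerve basement membranes and is lost in a congenital muscular dystrophy. It read 682, 814, 655 and 1010.2 in the mutants, and in controls its lowest, median and highest readings were 426, 557 and 688. Mutants 2 and 4 lay above all 9 controls and mutants 1 and 3 lay within the upper end of the control range. The means were 790.1 ± 162 in mutants and 560.4 ± 82.6 in controls (SD, n = 4 and 9), a log2 fold change of 0.48 ± 0.146 (SE; adjusted p = 0.0321). The call was lost with the Xist level as a covariate (adjusted p = 0.172), with unequal variances (0.199), and without mutant 2 (0.0917), mutant 4 (0.154), control 1 (0.0533) or control 7 (0.0501).

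Lama1 encodes the alpha 1 chain, a main chain of the pial basement membrane. It read 541, 658, 554 and 1020.3 in the mutants, against 453, 617 and 772 as the lowest, median and highest of controls. Only mutant 4 was outside the control range. The log2 fold change was 0.19 ± 0.172 (SE; adjusted p = 0.664), and a two-sided exact permutation test of the group labels gave p = 0.347, where 0.0014 is the smallest this design allows. Without mutant 4 the log2 fold change was -0.0049, and with each array centred on reference genes the exact p was 0.042. The 16 reference genes measured had a median log2 fold change of -0.11, and 2 of them fell and 0 rose. Centring on them shifted the median of all genes by 0.12.

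Lama4, the alpha 4 chain of vessel walls and mesenchymal tissue, averaged 1088 ± 195 in mutants and 1103 ± 154 in controls (log2 fold change -0.02 ± 0.142; SE). Its interval ran from -0.32 to 0.27. Lama5, the alpha 5 chain of epithelial and mature vascular basement membranes, averaged 54.6 ± 14.02 in mutants and 71.7 ± 15.6 in controls, a log2 fold change of -0.31 ± 0.161 (adjusted p = 0.266). All 4 mutants were below the control median of 71.3, and mutants 2 and 3 were below all controls. Lama5 passed with quantile normalization (adjusted p = 0.000469) and with array weights (0.0158). Over all genes quantile normalization called 2668 higher and 3617 lower, beside 1710 and 1258 without it. Lama3, an alpha chain of epidermal laminin, had nearly the same mean in both groups, 42.7 in mutants and 42.3 in controls.

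None of the 3 beta chains passed, and their fold changes differed in sign. Lamb1, the beta chain of most embryonic laminins, read 1497, 1750.2, 1335 and 2198 in mutants and 1019, 1488 and 1906 as the lowest, median and highest in controls (log2 fold change 0.25 ± 0.164; adjusted p = 0.439). Lamb2, the beta chain known from the neuromuscular junction and the kidney glomerulus, read 768, 888, 704 and 1180.0 in mutants and 878, 1128 and 1224 in controls (log2 fold change -0.30 ± 0.147; adjusted p = 0.239). Lamb1 was above the control median in 3 of 4 mutants, and Lamb2 was below it in 3 of 4. With quantile normalization Lamb1 (adjusted p = 0.0244) and Lamb2 (0.0348) passed, and with arrays centred on reference genes Lamb1 passed (0.0229). Lamb3, the beta chain of epidermal laminin, averaged 61.0 ± 22.8 in mutants and 53.6 ± 16.8 in controls.

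The gamma chains Lamc1 and Lamc3 did not pass, and again the fold changes differed in sign. Lamc1, the gamma chain of nearly all laminins and the one to which nidogens bind, read 1184, 1290.1, 1118 and 1606 in mutants, against 889, 1072 and 1260.1 as the lowest, median and highest of controls. All 4 mutants exceeded the control median, and mutants 2 and 4 exceeded all controls, yet the log2 fold change of 0.31 ± 0.134 did not pass (SE; adjusted p = 0.152). Lamc3, a gamma chain whose loss in humans is known to cause cortical malformations, read 217, 209, 185 and 309 in mutants and 219, 326 and 336 in controls. Mutants 1, 2 and 3 were below all controls, and the log2 fold change was -0.34 ± 0.155 (adjusted p = 0.186). Quantile normalization turned both gamma chains into calls (adjusted p = 0.00127 for Lamc1 and 0.00148 for Lamc3), beside 2668 genes called higher and 3617 lower over all genes. Lamc1 also passed with arrays centred on reference genes (0.00162), and Lamc3 with array weights (0.0236).

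Nid2 was the only ligand gene that fell. It encodes nidogen 2, which binds laminin, type IV collagen and perlecan. It read 791, 867, 658 and 989 in mutants, and its lowest, median and highest control readings were 1141, 1408 and 1620.4. No mutant reached the lowest control. The means were 826 ± 139 in mutants and 1360.0 ± 157 in controls, a log2 fold change of -0.71 ± 0.133 (SE; interval -0.99 to -0.44; adjusted p = 0.000616). Leaving out each mouse in turn gave log2 fold changes of -0.80 to -0.61 and kept the call. With unequal variances the adjusted p was 0.0563.

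Nid1, which encodes nidogen 1 and overlaps nidogen 2 in function in mice, did not pass. It read 1534, 1609, 1452 and 2071 in mutants and 1472, 1761 and 2108 as the lowest, median and highest in controls. Only mutant 3 was outside the control range, just under it, and the log2 fold change was -0.06 ± 0.132 (interval -0.34 to 0.21; adjusted p = 0.940).

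**Figure D2:**
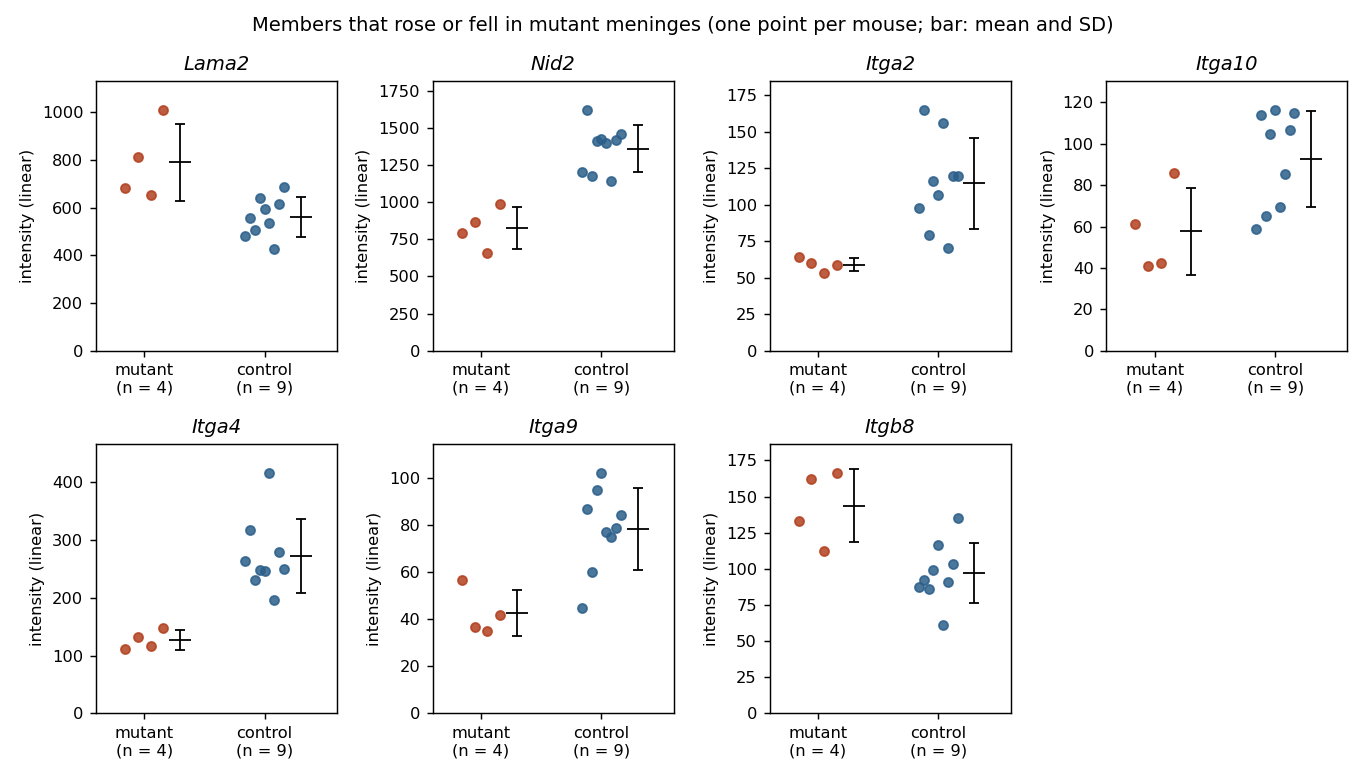
Linear array intensity (vertical axis) of the 7 members that passed the test, 1 point per mouse, mutants left and controls right, with mean and SD bars. The mutant points of Nid2, Itga2 and Itga4 all lie under the lowest control, while the 2 groups overlap for Lama2, Itga10, Itga9 and Itgb8.

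Among the integrins, the classic laminin receptors did not pass. Itga3 and Itga6 encode alpha subunits that pair with beta 1, and alpha 6 also with beta 4, and radial glia carry both. Itga6 read 170, 206, 187 and 218 in mutants and 173, 241 and 376 as the lowest, median and highest in controls, so all 4 mutants lay below the control median (log2 fold change -0.34 ± 0.171; SE; adjusted p = 0.250). Itga3 averaged 88.7 ± 28.4 in mutants and 115 ± 26.1 in controls (log2 fold change -0.33 ± 0.177; adjusted p = 0.284). Itga7, the laminin receptor of muscle, averaged 49.0 ± 11.7 in mutants and 59.6 ± 14.1 in controls (log2 fold change -0.21 ± 0.160). The intervals of all 3 included 0, and with quantile normalization all 3 passed (adjusted p = 0.00726 for Itga3, 0.0426 for Itga6 and 0.0359 for Itga7). That setting called 3617 of all genes lower, beside 1258 without it.

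Of the 4 collagen-binding alpha subunits, 2 fell. Itga2, a receptor for fibrillar collagen that also marks platelets and some epithelia, read 63.9, 60.1, 53.4 and 58.8 in mutants, against 70.7, 116 and 165 as the lowest, median and highest of controls. The mutants were tightly grouped and all lay below the lowest control, with means of 59.0 ± 4.36 in mutants and 115 ± 31.2 in controls. Itga2 was dimmer than the median gene. The log2 fold change was -0.76 ± 0.171 (SE; adjusted p = 0.00334), and the call was lost only with the Xist level as a covariate (adjusted p = 0.0679). The platelet marker Pf4, of which border macrophages are also a known source, fell as well (log2 fold change -1.60), while Ppbp and Gp9 did not pass, and their part in the Itga2 difference was not tested.

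Itga10, a collagen receptor known from cartilage, read 61.3, 41.1, 42.5 and 85.9 in mutants and 58.7, 105 and 116 as the lowest, median and highest in controls. Mutants 2 and 3 were below all controls, and Itga10 was dimmer than the median gene. Its log2 fold change of -0.57 ± 0.188 passed narrowly (SE; adjusted p = 0.0465), and did not pass without any 1 of mutants 1, 2 and 3 or controls 2, 4, 5, 7, 8 and 9 (adjusted p = 0.0627 to 0.190), nor in 6 of 13 other settings. Itga1, which binds type IV collagen and laminin, read 503, 558, 486 and 787 in mutants and 599, 778 and 1059.5 in controls. Mutants 1, 2 and 3 lay below all controls and mutant 4 lay near the control median, and the log2 fold change of -0.41 ± 0.161 did not pass (adjusted p = 0.101). It passed without mutant 4 (-0.56; adjusted p = 0.0259). Itga11, a collagen receptor of fibroblasts, averaged 233 ± 104 in mutants and 187 ± 34.0 in controls, with mutant 4 at 388 and the other 3 mutants between 163 and 196.

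Both alpha subunits of the alpha 4 and alpha 9 class fell. Itga4 had the largest fold change of the 38 members. It encodes the subunit that binds VCAM-1 and fibronectin and is widely carried by leukocytes. It read 111, 132, 116 and 148 in mutants, and its lowest, median and highest control readings were 196, 250.4 and 416. The highest mutant was below the lowest control. The means were 127 ± 16.9 in mutants and 272 ± 63.4 in controls, a log2 fold change of -0.99 ± 0.157 (SE; interval -1.32 to -0.66; adjusted p = 0.000108). The call was kept in each of 13 other settings and without each mouse in turn.

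Itga9, a receptor for VCAM-1, tenascin-C and osteopontin, read 56.7, 36.8, 35.1 and 41.7 in mutants and 44.6, 78.7 and 102 as the lowest, median and highest in controls. Mutants 2, 3 and 4 were below all controls, and mutant 1 exceeded only control 1. Itga9 too was dimmer than the median gene. The log2 fold change was -0.68 ± 0.162 (SE; adjusted p = 0.00599), and the call was lost with the Xist level as a covariate (adjusted p = 0.118). Vcam1, a shared ligand of both subunits, also fell (log2 fold change -0.59 ± 0.135; adjusted p = 0.00382). Among 12 macrophage and microglia markers, which include leukocyte genes, 10 fell and 1 rose. Their median log2 fold change was -0.68 and their mean log2 level was 8.09 to 8.85 in mutants and 8.92 to 9.41 in controls, so the groups did not overlap. The part of these cells in the lower Itga4 and Itga9 readings was not tested.

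The integrins restricted mainly to leukocytes did not pass. Itgal, Itgam, Itgax and Itgad encode the alpha subunits that pair with beta 2 on leukocytes, and Itgae pairs with beta 7 to bind E-cadherin. The log2 fold changes of these 5 ran from -0.32 (Itgal, adjusted p = 0.259) to 0.17 (Itgae), with a median of 0.14. Itgal passed with quantile normalization (0.00227) and with array weights (0.00645). Itgb2, the shared beta subunit, averaged 67.7 ± 9.37 in mutants and 77.3 ± 11.8 in controls (log2 fold change -0.15 ± 0.129; adjusted p = 0.633). Itgb7 averaged 41.2 ± 11.6 in mutants and 40.2 ± 10.4 in controls. Most of these genes were dim: of the 26 integrin genes, 14 had a mean intensity below that of the median gene, which limits what a fold change on this scale can show. Of those 14, 3 passed the test: Itga2, Itga10 and Itga9.

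The 4 alpha subunits that bind RGD motifs of the matrix did not pass. Itga8, the receptor for nephronectin, read 136, 157, 121 and 167 in mutants and 140.4, 205 and 247 as the lowest, median and highest in controls, with all 4 mutants below the control median (log2 fold change -0.38 ± 0.164; adjusted p = 0.154). Itga8 passed with quantile normalization (0.00689) and with array weights (0.0468). Npnt, which encodes nephronectin, fell (-0.58 ± 0.176; adjusted p = 0.0315), a call lost without mutants 1, 2 or 3 or controls 5 or 8 (0.0509 to 0.111). Itgav, which pairs with several beta subunits, averaged 555 ± 106 in mutants and 558 ± 74.5 in controls, an interval of -0.31 to 0.28 on the log2 scale. Itga5, the fibronectin receptor, averaged 183 ± 30.0 in mutants and 203 ± 40.8 in controls, and Itga2b of platelets averaged 48.6 ± 11.2 in mutants and 49.3 ± 12.3 in controls.

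Of the 8 beta subunits, only Itgb8 passed. Itgb8 pairs with alpha v, activates latent TGF-beta and is carried by neuroepithelial and glial cells in the mouse brain. It read 133, 162, 113 and 167 in mutants, against 60.9, 92.5 and 135 as the lowest, median and highest of controls. Mutants 2 and 4 were above all controls and all 4 were above the control median. The means were 144 ± 25.4 in mutants and 96.8 ± 20.7 in controls, a log2 fold change of 0.51 ± 0.156 (SE; adjusted p = 0.0326). The call was lost without mutant 1 (adjusted p = 0.0585), mutant 2 (0.118) or mutant 4 (0.117), with the Xist level as a covariate (0.302), with unequal variances (0.107) and by the methods' t-test (0.0535). Of 10 radial glia and astrocyte markers, 1 rose (Sox2, log2 fold change 1.998), 2 fell (Gjb6, -1.21, and Slc1a3, -0.60) and 7 did not pass. The mean log2 levels of the 10 were 8.33 to 9.04 in mutants and 8.16 to 8.80 in controls. The part of neural cells in the Itgb8 difference was not tested.

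Itgb1, the beta subunit shared by all laminin-binding and collagen-binding alpha subunits, read 2010.5, 2811, 2091 and 2907 in mutants and 2442, 3029 and 3509.8 as the lowest, median and highest in controls. All 4 mutants lay below the control median and mutants 1 and 3 lay below all controls. The means were 2455 ± 469 in mutants and 3042 ± 341 in controls, and the log2 fold change of -0.32 ± 0.136 did not pass (SE; interval -0.60 to -0.03; adjusted p = 0.147). Itgb1 passed with quantile normalization (adjusted p = 0.0023). Itgb4, the partner of alpha 6 in hemidesmosomes, came closest to the threshold. It read 93.6, 60.7, 55.2 and 79.4 in mutants and 70.6, 108 and 153 in controls (log2 fold change -0.51 ± 0.177; adjusted p = 0.0607). It passed without mutant 1 (adjusted p = 0.0398), control 3 (0.0237) or control 6 (0.0206), with quantile normalization (7.48e-05), with array weights (0.000791), without the dimmest 25% of genes (0.0449) and without the 4 dimmest arrays (mutant 3 and controls 1, 3 and 6; 0.00644). The remaining beta subunits, Itgb3, Itgb5 and Itgb6, had log2 fold changes of 0.17, -0.12 and -0.16.

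Set against each other, ligands and receptors had similar shares of calls, 16.7% of 12 ligand genes and 19.2% of 26 integrin genes, beside 14.9% of all genes. The median log2 fold change was -0.0057 over the ligand genes, with 6 above and 6 below 0, and -0.16 over the integrin genes, with 7 above and 19 below 0, beside 0.0043 over all genes. With arrays centred on reference genes, which shifted the median of all genes by 0.12, the ligand median was 0.12 and the integrin median -0.03, so the order of the medians was kept while the sign of the ligand median was not. Of the 18 alpha subunits 14 lay below 0, with a median of -0.27. Of the 8 beta subunits 5 lay below 0, with a median of -0.13, beside 9775 of all 19938 genes. The median coefficient of variation was 22.9% for integrin genes and 22.2% for ligand genes among mutants, and 22.9% for integrin genes and 15.6% for ligand genes among controls.

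Because chains of one type stand in for each other in the laminin trimer or bind the same partners, the ratio of their intensities within each mouse was compared between groups. This comparison does not depend on the scale of the array. It was chosen after the values were seen and is given as a description, without a test. Among 15 pairs of the same chain type, mutants and controls did not overlap for 5, beside 18.4% of all gene pairs on the array. The Nid2 to Nid1 ratio was 0.515, 0.539, 0.453 and 0.478 in mutants, against 0.756 to 0.817 in controls. The Lamb1 to Lamb2 ratio was 1.95, 1.97, 1.90 and 1.86 in mutants and 1.16 to 1.58 in controls. The Lamc1 to Lamc3 ratio was 5.45, 6.17, 6.03 and 5.19 in mutants and 3.12 to 4.08 in controls. These 3 ratios therefore separated the groups, although of the 6 genes only Nid2 passed its own test.

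Of the remaining pairs, Lama2 to Lama4 was higher in mutants (0.725 ± 0.0493) than in controls (0.511 ± 0.0597), and Lama3 to Lama5 was 0.711 to 0.914 in mutants and 0.465 to 0.660 in controls. The other 10 pairs overlapped. Of 12 alpha subunits set over Itgb1, only Itga4 separated the groups (0.0521 ± 0.00402 in mutants and 0.0887 ± 0.0124 in controls). Such a ratio shows that 2 probe sets changed unequally, not which chain is more abundant. Leaving out each mouse in turn kept the log2 difference of the nidogen ratio between -0.69 and -0.61, of the beta chain ratio between 0.53 and 0.58, and of the gamma chain ratio between 0.61 and 0.69.

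**Figure D3:**
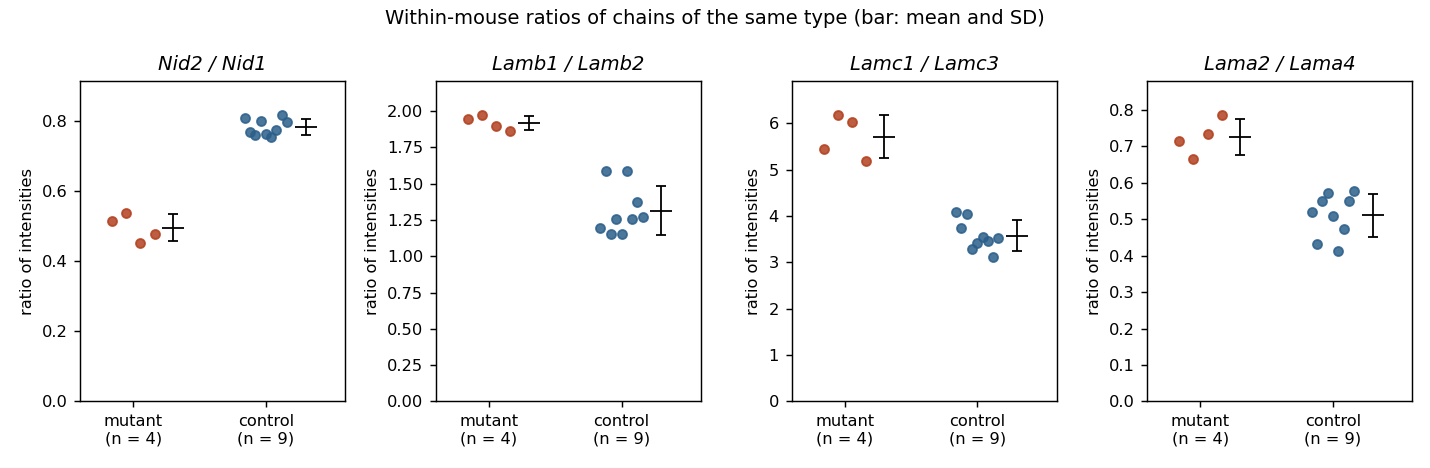
Ratio of the intensities of 2 genes within each mouse (vertical axis, no unit) for Nid2 over Nid1, Lamb1 over Lamb2, Lamc1 over Lamc3 and Lama2 over Lama4, 1 point per mouse, mutants left and controls right, with mean and SD bars. No mutant overlaps a control: Nid2 over Nid1 lies between 0.453 and 0.539 in mutants and from 0.756 in controls, and the other 3 ratios lie higher in mutants.

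The proteins that laminins, nidogens and integrins bind were read from 4 lists holding 68 measured genes, of which 4 rose and 18 fell, where 8.58% of all genes rose and 6.31% fell. Of 24 other basement membrane components, 1 rose and 7 fell. Smoc1, a matricellular protein of basement membranes, fell by 1.84 on the log2 scale (adjusted p = 2.19e-08), Pxdn, the peroxidase that crosslinks type IV collagen, fell by 0.62 (0.0104), and Frem1, a component of the epidermal basement membrane, rose by 0.65 (0.0115), a call lost without mutant 2 (0.0670) or mutant 4 (0.0674). The main network genes did not pass. Col4a1 and Col4a2, the chains of the common type IV collagen, had log2 fold changes of 0.35 ± 0.162 and 0.24 ± 0.167. That of Hspg2, which encodes perlecan, was 0.15 ± 0.154. Of the other type IV collagen chains, Col4a5 fell (-0.54 ± 0.152, adjusted p = 0.0193). Col4a6 (-0.48, adjusted p = 0.0564), Col4a3 (-0.02) and Col4a4 (0.02) did not pass.

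Among 10 non-integrin laminin receptors, 1 rose and 4 fell. Sdc3, a syndecan abundant in neurons, rose (log2 fold change 0.93; adjusted p = 0.000416), Bcam, a receptor for the laminin alpha 5 chain, fell (-0.82; 0.00137), and Sgcd, a sarcoglycan of the dystroglycan complex, fell (-0.47; 0.0177). The log2 fold change of Dag1, which encodes dystroglycan itself, was -0.14 ± 0.135 (adjusted p = 0.701). The Sgcd call was lost without mutant 1 (0.0803) or mutant 3 (0.0723). Among 15 other integrin ligands, 2 rose and 4 fell, led by Ccn2 (-1.27; adjusted p = 1.35e-05), Edil3 (1.10; 1.42e-05) and Postn (-0.95; 5.96e-05), which encode a matricellular growth factor modulator, an alpha v ligand and periostin.

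Of 19 genes of the integrin adhesion complex, 0 rose and 3 fell: Tln2 (-0.74; adjusted p = 0.000552) and Tln1 (-0.51; 0.0121), the talins that link beta subunits to actin, and Fermt3 (-0.61; 0.0139), the kindlin of blood cells. The Fermt3 call was lost without mutant 1 (0.0695), 2 (0.0532) or 3 (0.0693). The median of this list was -0.24, and 15 of its 19 genes lay below 0. Across the 68 genes the median was -0.14. The count that rose was 2 without mutant 2 or mutant 4 and 7 without mutant 3. The count that fell was 10 without mutant 1 and 9 without mutant 3. Over all genes, 1710 rose and 1258 fell with every mouse included. Without mutants 2, 4 and 3 in turn 1349, 1331 and 1904 rose, and without mutants 1 and 3 778 and 777 fell. Quantile normalization gave 11 partner genes that rose and 30 that fell, beside 2668 and 3617 of all genes. With unequal variances 6 partner genes fell, beside 400 of all genes, and with the Xist covariate 6, beside 605.

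**Figure D4:**
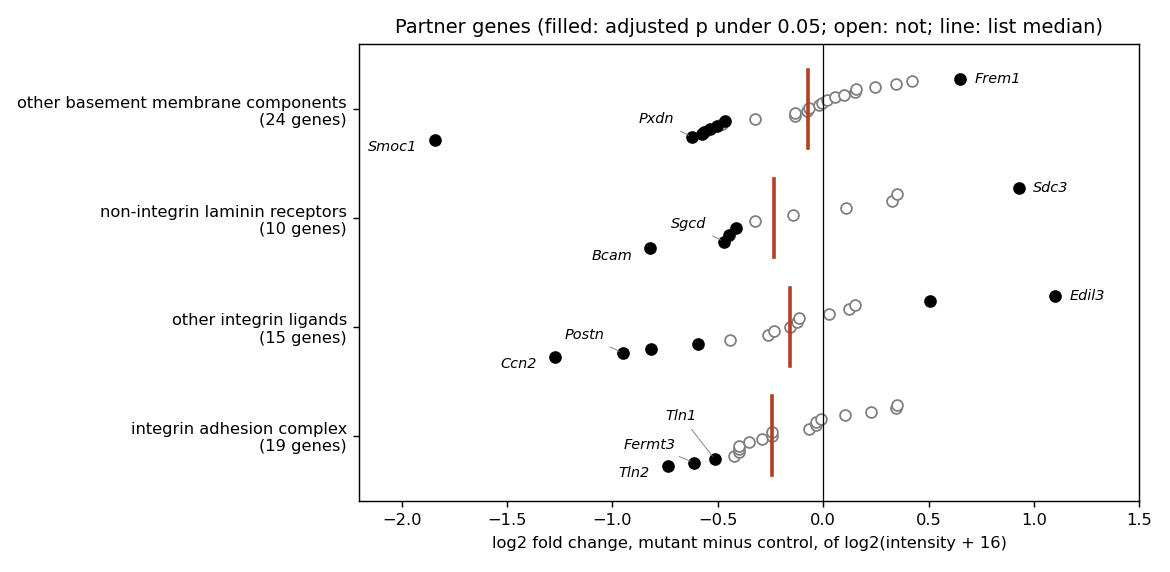
Log2 fold change (mutant minus control, horizontal axis, on the log2(intensity + 16) scale) of 68 partner genes in 4 lists; each point is a gene, filled where the adjusted p was under 0.05, spread vertically by rank, and the red line is the list median. Calls left of 0 (18) outnumber those right of 0 (4), with Smoc1 (-1.84) and Edil3 (1.10) at the ends.

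Markers of the cells that make or bind basement membranes moved in several directions. Of 12 endothelial markers 8 fell and 0 rose, with a median of -0.80 and mean log2 levels of 8.67 to 9.04 in mutants and 9.09 to 10.2 in controls. Of 15 meningeal fibroblast markers 6 fell and 2 rose, from Crabp2 at -1.25 to Col3a1 at 0.53 (not passed without mutant 2 or 4, adjusted p = 0.0522 and 0.0648). Among those that fell was Pdgfra (-0.71; adjusted p = 0.0276), which the GFP allele disrupts in every mutant. Its reading therefore cannot be taken as a measure of these cells. Of 10 mural cell markers 0 passed. Laminins, nidogens and beta 1 integrins are made by all 3 kinds of cells, and the part of their markers in the readings of the 38 genes was not tested. Markers of surface epithelium and skeletal muscle, 2 further sources of laminins and integrins, did not separate: 1 of 8 epithelial markers passed (Cdh1, -0.73) and 0 of 7 muscle markers, with mean levels that overlapped.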

How the data were processed

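Cerebral meninges of 4 mutants and 9 littermate controls were profiled on Gene Chip Mouse Gene 1.0 ST arrays, 1 array per mouse. The deposited values are intensities that the authors summarised and normalised with PLIER (version and genome build not given in the sources used here) for 35557 probe sets. Of these, 21789 carried 1 gene symbol in the platform annotation, 1621 several and 12147 none, and the brightest single-symbol probe set stood for each of 19938 genes (999 genes had several). The tests were two-sided fits of log2(intensity + 16) by lmFit and eBayes of limma 3.58.1 (R 4.3.3). Their p-values were adjusted over all genes after Benjamini and Hochberg, with 0.05 as the threshold. The number of arrays limits the precision. Python 3.11.15 with matplotlib 3.10.9 drew the figures. The fitting script was tested on simulated data.

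The 38 members, the gene lists and the tests were chosen with earlier results of these data known. Named in full were the members that passed, all laminins and nidogens, and Itga3, Itga6, Itga7 and Itgb1, with up to 3 genes of each partner list; other genes were named after their values were seen. Alternatives were quantile normalization, centring on reference genes, pseudocounts of 1 and 32, a filter on dim genes, the mean of probe sets, a t-test with equal or unequal variances, array weights, an intensity trend, the Xist level or replicate number in the model, and leaving out each mouse. Leaving out 4 dim arrays, the within-mouse ratios and the fold of mean intensities were added after the data were seen. All mice came from a single litter, so p-values measure the spread between these littermates.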

Additional observations from a re-analysis of the deposited data

Results flagged for a closer look

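Within the 4 mutants, the Itgb2 reading of mutant 4 stood apart from the others. It was 81.7, against 62.1 to 64.3 in mutants 1 to 3, a gap that took up 0.878 of the group's range and exceeded Dixon's critical value. In controls Itgb2 read 61.3 to 94.97, so this mutant lay inside the control range. It was the only such reading among 76 sets of values examined (38 genes in 2 groups), which is fewer than the share of about 5% that chance gives.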

How the results depend on the processing

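The direction of all 7 calls was kept in every alternative, and Itga4 was the only one that passed in all of them. Leaving out mutant 3 and controls 1, 3 and 6, whose arrays had the lowest medians, was tried after seeing the data and kept the 7 calls. Quantile normalization gave 3 ligand genes that rose and 4 that fell, 12 integrins that fell, and 11 partner genes that rose and 30 that fell, and moved the calls over all genes to 2668 higher and 3617 lower. Centring on reference genes gave 3 ligand genes and 11 partner genes that rose, an exact p of 0.042 for Lama1, and 3405 genes higher and 1311 lower. That centring moved the median of all genes by 0.12, and array weights moved it to -0.11. Array weights gave 3 ligand genes and 8 integrins that fell, with 2033 genes higher and 2023 lower. The equal-variance t-test of the methods, but with p adjusted over all genes, gave 0 integrins that rose. At the methods' p and fold limits 0 members passed on the log2(intensity + 16) scale, and 1 (Itga4) by the ratio of mean intensities, an alternative added after seeing the data. With unequal variances 0 ligand genes rose and 0 fell, 0 integrins rose, and 2 partner genes rose and 6 fell. Over all genes 1139 rose and 400 fell in that setting. With the Xist level as a covariate 0 ligand genes and 0 integrins rose, 1 integrin fell (Itga4) and 6 partner genes fell. Of all genes 1144 then rose and 605 fell. With the replicate number as a block 0 ligand genes rose, 2 integrins fell and 5 partner genes fell, beside 1284 genes higher and 545 lower. The adjusted p with this block was 0.0524 for Lama2, 0.258 for Itga10 and 0.189 for Itga9. Same-numbered mice did not deviate together (correlations -0.344, 0.162, 0.307 and -0.0926), so the numbers do not mark pairs, and controls 5 to 9 have no mutant of that number. The cause of these shifts was not tested.

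Leaving out each mouse in turn gave 0 to 1 ligand genes that rose and 1 to 1 that fell. It gave 0 to 1 integrins that rose and 3 to 5 that fell. Of the partner genes 2 to 7 rose and 9 to 22 fell, and of all genes 1331 to 1904 rose and 777 to 1490 fell. The ligand median ran from -0.0831 to 0.0898 and the integrin median from -0.23 to -0.12, and the exact p of Lama1 from 0.227 to 0.945. Signs changed only for genes that did not pass. In these runs Lama1 ranged from -0.0049 to 0.29, Lama3 from -0.0579 to 0.11, Lama4 from -0.11 to 0.0656, Lamb3 from -0.0305 to 0.29, Itga11 from -0.0255 to 0.36, Itgav from -0.13 to 0.0852, Itga2b from -0.0951 to 0.0942, Itgad from -0.13 to 0.0473 and Itgb7 from -0.10 to 0.10. Quantile normalization gave Lama3 -0.0467, Lama4 0.0173 and Itgb7 -0.0203. Array weights gave Lama3 -0.0683, Lama4 0.0333, Lamb3 -0.10, Itgae -0.0179, Itgax -0.11 and Itgb7 -0.14. Centring on reference genes gave Lama4 0.10, Nid1 0.0588, Itgav 0.11, Itga2b 0.12, Itgad 0.0862 and Itgb5 0.0068. The Xist covariate gave Lama4 0.0310, Itgav 0.0710, Itga2b 0.0332 and Itgad 0.0457, and the replicate block gave Lama4 0.0305, Itgav 0.0072 and Itga2b 0.11. Without the 4 dim arrays Lama3 was -0.0178, Lama4 0.0258, Itgav 0.0012 and Itgb7 -0.0813, and the mean of its probe sets gave Itgad 0.0162. Itgb6 had no value without the dimmest 25% of genes.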
